A study of Rattus norvegicus with 6 samples.

Results

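DEAD-box and DEAH-box proteins are RNA helicases named after a short run of amino acids in their ATP-binding core. DEAD-box enzymes pry short RNA duplexes apart locally, whereas DEAH-box enzymes move along a strand and pull on it. Between them they act at nearly every step in the life of an RNA, from ribosome assembly and splicing to export, translation and decay. In muscle cells Ddx5 and Ddx17 are also known as coactivators of the myogenic factor MyoD.

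The 48 genes described here were the protein-coding entries of the deposited count table whose symbol starts with Ddx or Dhx followed by a number, leaving out the RNA sensors Ddx58 and Dhx58. The table lists 19825 genes, 15835 of them protein-coding. Of the members, 33 carry a Ddx and 15 a Dhx symbol, and all 48 passed the filter on low counts. The DEAD-box genes of the eIF4A family carry other symbols and are described with the partner genes. Polyadenylated RNA was sequenced from H9C2, a myoblast-like line of embryonic rat heart labelled as cardiomyocytes. In 3 libraries (siPUM2) a transfected siRNA targeted PUM2, a protein that binds messages and is known for repressing them. The other 3 libraries (NC) came from H9C2 cells that received an empty vector, per the labels. A scrambled siRNA is not named there, so PUM2 knockdown and siRNA delivery cannot be told apart. Whether a group's libraries stem from different cultures is not labelled, and the p-values here reflect library spread alone, which may be technical.

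The libraries held 27704702 to 29278049 counts in siPUM2 and 27997107 to 30579237 counts in NC. Pum2 was measured at 127, 125 and 120 CPM (counts scaled to library size) in siPUM2 1, 2 and 3, against 223, 228 and 225 CPM in NC 1, 2 and 3, so the targeted gene was lower in every knockdown library. Of 9 cardiomyocyte markers in the table, 4 (Myh7, Tnni3, Actn2 and Ryr2) averaged under 10 counts a library, and the list summed to 463 to 518 CPM in siPUM2 and 298 to 356 CPM in NC, nearly all of it Tnnt2. Of the 5 that were tested, 2 rose, 0 fell and 3 were not called. Those that rose were Tnnt2 (log2 fold change 0.67, adjusted p = 2.86e-12, edgeR) and Pln (0.83, adjusted p = 8.03e-05). Of 4 skeletal myoblast markers in the table, which summed to 145 to 154 CPM in siPUM2 and 147 to 159 CPM in NC, 1 fell, 2 rose and 1 was not called. The differentiation factor Myog was at 9.68, 9.22 and 8.79 CPM in siPUM2, against 15.9, 24.4 and 19.9 CPM in NC, all lower in siPUM2 (log2 fold change -1.12, adjusted p = 1.86e-09, edgeR). Des (0.17, adjusted p = 0.0367) and Mymk (0.17, adjusted p = 0.0360) rose, and Myod1 was not called, at 84.1 CPM in siPUM2 and 81.3 CPM in NC. The part of these markers in the helicase values was not tested. Endothelial markers summed to at most 0.240 CPM in siPUM2 and 0.250 CPM in NC, and macrophage markers to at most 1.37 CPM in siPUM2 and 1.82 CPM in NC. The fibroblast markers Dcn, Lum and Pdgfra averaged under 10 counts, while Col1a1 and Thy1 were abundant. Thy1 rose (log2 fold change 0.31, adjusted p = 9.02e-11, edgeR) and Col1a1 fell (-0.08, adjusted p = 0.0116). SiPUM2 3 stood apart in its residual ribosomal RNA, 0.102% of counts, against 0.0275% and 0.0342% in the other siPUM2 libraries and 0.0354% to 0.0510% in NC.

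More helicase messages were lower than higher in siPUM2. Of the 48 members, 16 fell and 3 rose at an adjusted p under 0.05 (edgeR's quasi-likelihood test, Benjamini-Hochberg over all 12985 genes tested), and 29 did not pass. In all 39.6% of members were called, beside 28.4% of all genes tested. The share that fell was 33.3%, beside 13.3% of all genes tested, and the share that rose was 6.25%, beside 15.1% of all genes tested. The differences were small. The median log2 fold change (siPUM2 minus NC) was -0.083 over the members and 0.001 over all genes tested, and the value was below 0 in 37 of 48 members and in 6454 of 12985 genes. Among the members that fell, Ddx41 fell by 23.5% and the others by 5.87% (Ddx39b) to 15.8% (Ddx49). In all, 33 of the 48 members differed by less than 10% between the groups.

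The 3 siPUM2 libraries lay below all 3 NC libraries for 22 members, and 19.2% of all genes tested did so. They lay above all NC libraries for 3 members, beside 20.7% of all genes tested. Together the members took 0.472%, 0.480% and 0.471% of all counts in siPUM2 1, 2 and 3, against 0.498%, 0.496% and 0.491% in NC 1, 2 and 3. Each siPUM2 share was under each NC share (exact permutation test, two-sided, p = 0.10, the smallest that 3 against 3 can give). Fewer molecules per cell and fewer cells that express a gene cannot be told apart in these bulk libraries.

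The count of members called depended on the libraries used. Without siPUM2 1, 10 members were called lower, beside 10.8% of all genes tested, a share that was 13.3% with every library. Without siPUM2 3, the library with the most ribosomal RNA, 12 were, beside 13.2% of all genes tested. The count was also 12 without siPUM2 2 and without NC 2, each beside 10.6% of all genes tested. Without siPUM2 2, without NC 2 or without NC 3, 1 member was called higher. Of all genes tested 1625, 1603 and 1708 were then called higher, beside 1961 with every library. Ddx41, Ddx23, Ddx54, Ddx49, Ddx27, Ddx17, Ddx39a and Ddx55 kept their direction and call under all 17 alternatives that were run for single members. Proliferation markers moved in the same comparison. Of 12 such genes 8 fell (66.7%, beside 13.3% of all genes tested), among them the replicative helicase subunits Mcm2, Mcm3, Mcm5, Mcm6 and Mcm7. The subunit Mcm4 (adjusted p = 0.0548, edgeR) and Cdk1 (0.164), Ccna2 (0.184) and Pcna (0.966) were not called. The list summed to 2283 to 2322 CPM in siPUM2, against 2535 to 2591 CPM in NC. The part of the proliferation markers in the helicase values was not tested.

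**Figure D1:**
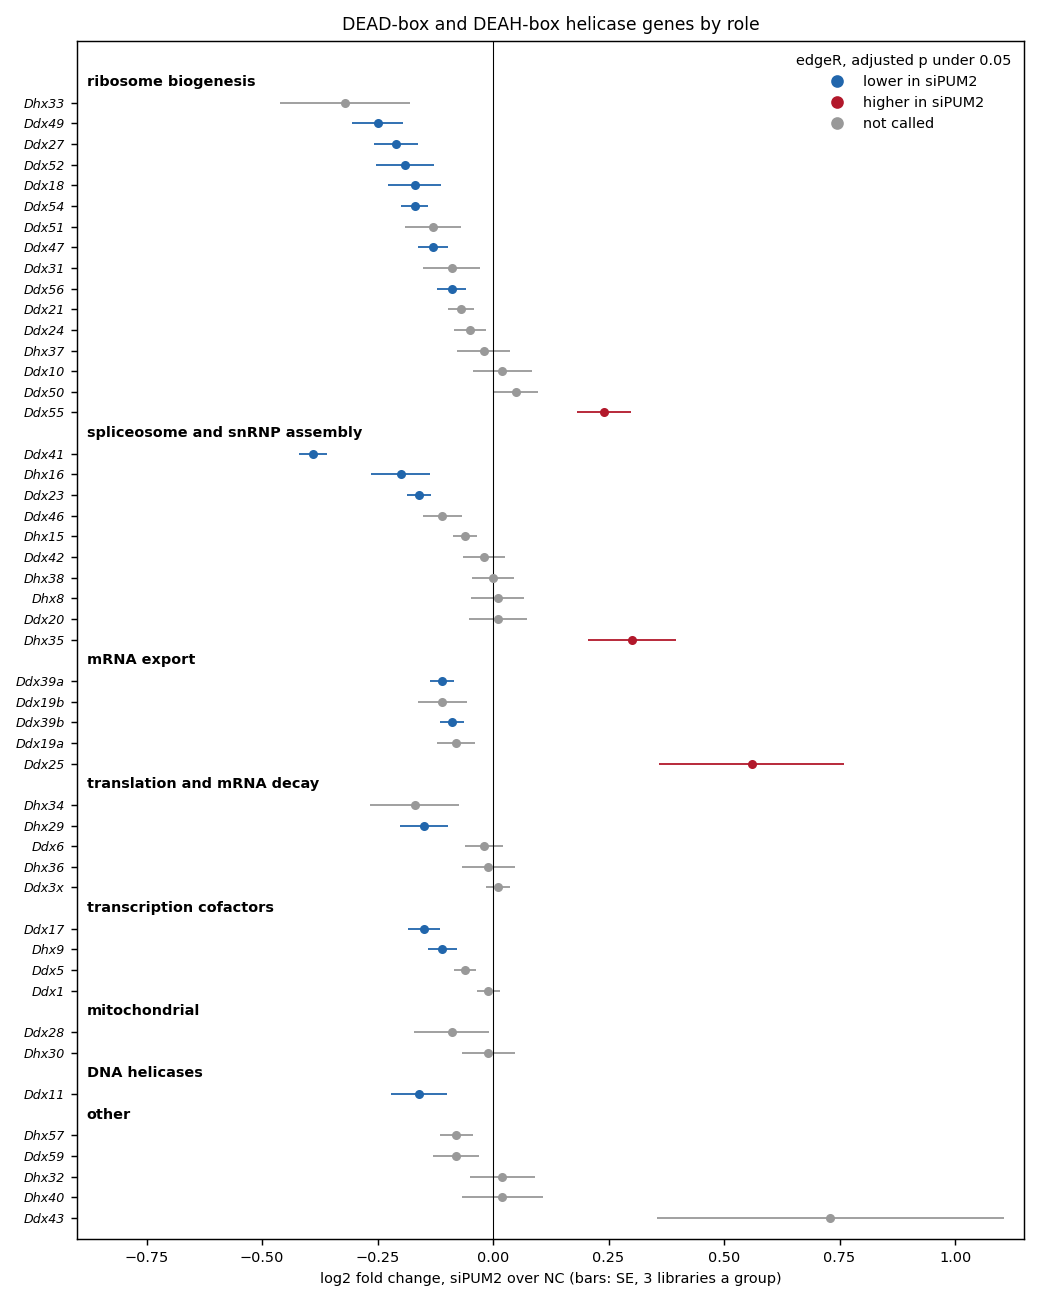
Log2 fold change (siPUM2 over NC, horizontal axis) with its SE for each of the 48 helicase genes (rows, grouped by role); blue points were called lower, red points higher and grey points not called. Among called genes Ddx41 lies farthest to the left, at -0.39, and the 3 red points are Ddx55, Dhx35 and Ddx25.

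Promoter windows of 4 members are shown because these genes carried the largest changes whose calls held: Ddx41, Ddx49 and Ddx27 had the lowest log2 fold changes of the members called lower under every alternative, and Ddx55 was the 1 member called higher under every alternative. Each window runs 5′ to 3′ on the gene's strand from 250 bases before to 50 after the annotated start, from RefSeq on the build GRCr8, a different build from the mRatBN7.2 named for the deposited files. Capitals mark matches, on either strand, to the CCAAT box (CCAAT), the GC box (GGGCGG) or an ETS motif (CCGGAAGT).
Ddx41 (chr17:9107920-9108219, plus strand): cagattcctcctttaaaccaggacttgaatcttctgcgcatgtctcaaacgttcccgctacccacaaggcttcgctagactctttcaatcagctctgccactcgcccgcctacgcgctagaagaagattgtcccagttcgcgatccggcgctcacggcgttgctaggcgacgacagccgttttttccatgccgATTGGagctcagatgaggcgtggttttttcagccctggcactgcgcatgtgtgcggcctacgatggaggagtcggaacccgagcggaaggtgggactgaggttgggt
Ddx49 (chr16:19159103-19159402, plus strand): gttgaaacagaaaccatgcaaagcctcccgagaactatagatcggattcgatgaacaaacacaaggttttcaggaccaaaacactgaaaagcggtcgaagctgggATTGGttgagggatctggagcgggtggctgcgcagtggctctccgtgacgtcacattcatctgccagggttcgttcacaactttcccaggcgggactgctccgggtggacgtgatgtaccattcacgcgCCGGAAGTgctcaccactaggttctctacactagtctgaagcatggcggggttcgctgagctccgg
Ddx27 (chr3:176162970-176163269, plus strand): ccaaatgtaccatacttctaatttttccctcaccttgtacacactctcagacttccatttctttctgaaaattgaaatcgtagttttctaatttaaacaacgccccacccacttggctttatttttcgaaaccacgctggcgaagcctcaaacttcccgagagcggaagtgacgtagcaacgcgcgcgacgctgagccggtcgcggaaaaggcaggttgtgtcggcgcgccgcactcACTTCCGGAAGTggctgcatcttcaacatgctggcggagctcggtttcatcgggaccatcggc
Ddx55 (chr12:37711149-37711448, minus strand): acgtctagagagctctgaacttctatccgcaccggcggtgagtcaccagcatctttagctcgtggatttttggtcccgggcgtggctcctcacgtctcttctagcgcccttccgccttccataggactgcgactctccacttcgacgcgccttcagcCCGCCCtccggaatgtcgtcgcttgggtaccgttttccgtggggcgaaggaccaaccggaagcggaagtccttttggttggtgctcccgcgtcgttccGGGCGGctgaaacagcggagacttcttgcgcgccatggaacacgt

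Ddx41 and Ddx49 each held a CCAAT box on the opposite strand, and Ddx49 also an ETS match on its own strand. Ddx27 held a pair of ETS matches that overlap as a palindrome, and Ddx55 a pair of GC boxes on different strands. A RefSeq promoter was matched for 45 of the 48 members, 15 of them called lower. The ETS letters were in 10 of the 45 windows (22.2%), beside 7.93% of the 11430 promoters of tested genes and 3.81% of all 33469 promoters of the same length. Of the 15 members called lower with a window, 5 held them. A TATA box (TATAAA) was in 0 of 45 member windows, beside 7.26% of tested genes. The GC box was in 60.0% of member windows and 59.5% of those of tested genes, and the CCAAT box in 46.7% of member windows and 37.7% of those of tested genes. The E-box CACGTG, which MYC proteins can bind, was in 13.3% of member windows and 9.14% of those of tested genes. In 1 of the 15 windows of members called lower, that of Ddx18, the E-box was present. The other windows with it, 6 of 45 in all, were those of Ddx25 and Dhx35, called higher, and Ddx28, Dhx33 and Dhx40, not called. The GC box was in 6 and the CCAAT box in 7 of the 15 windows of members called lower. The NRF1 palindrome was in 6.67% of member windows and 1.86% of those of tested genes. The YY1 letters (AAGATGGCG) were in 2.22% of member windows and 3.54% of those of tested genes. Matches were sought on both strands, and a match describes the letters only.

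Levels within the family ranged widely on the length-scaled FPKM unit (fragments scaled to gene length and library size). Ddx1, a part of the tRNA ligase complex, was the most abundant member at a mean of 446 FPKM over the 6 libraries. It ranked 185 among the 15667 protein-coding genes of the FPKM table and took 25.6% of all counts in members. Ddx39b followed at 133 FPKM, Ddx5 at 122, Ddx3x at 75.3 and Ddx39a at 67.9 FPKM. The median member stood at 11.5 FPKM, and the lowest was Ddx43, known from testis and tumours, at 0.202 FPKM. Genes with a Ddx symbol had a median of 16.5 FPKM and genes with a Dhx symbol one of 4.91 FPKM. Dhx15 was highest among the Dhx symbols at 50.6 FPKM. Of the 33 DEAD-box genes 13 fell and 2 rose, and of the 15 DEAH-box genes 3 fell and 1 rose. Beside these, 13.3% of all genes tested fell and 15.1% rose. The difference between the Ddx and Dhx shares was not tested.

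The most abundant gene differed little between the groups. Ddx1 was at 1207, 1245 and 1249 CPM in siPUM2 1, 2 and 3, against 1254, 1272 and 1210 CPM in NC 1, 2 and 3, and the groups overlapped (log2 fold change -0.01 ± 0.0254 SE, adjusted p = 0.743, edgeR). The members that rose had low or middling levels, Ddx25 at 0.688, Dhx35 at 1.14 and Ddx55 at 12.1 FPKM. Across the 48 members, which were measured in the same 6 libraries, Spearman's rho between mean FPKM and log2 fold change was -0.244.

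**Figure D2:**
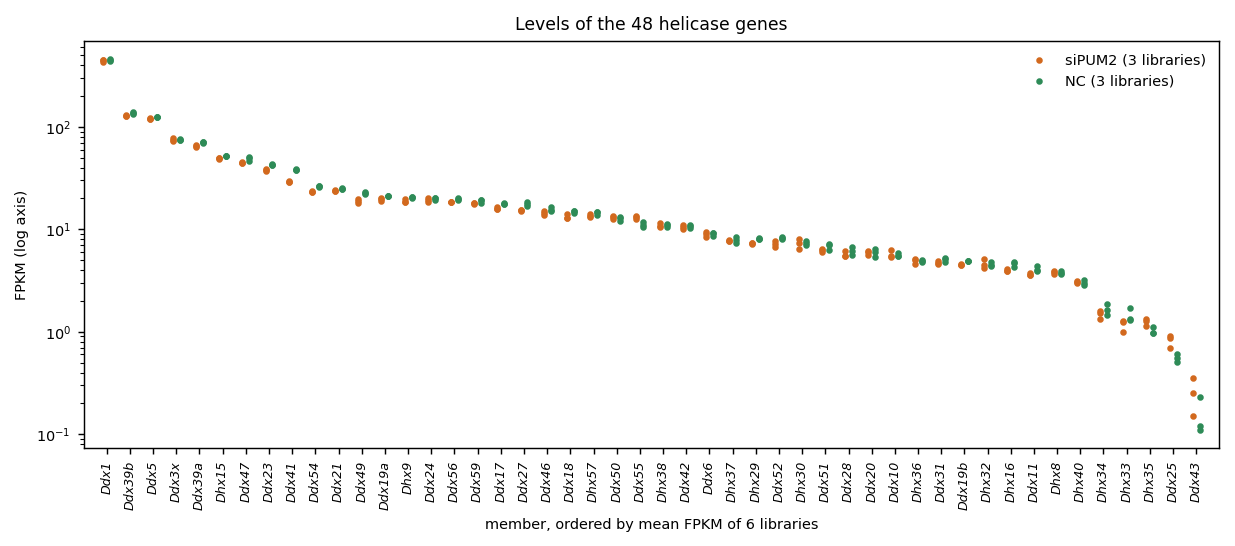
FPKM (log axis) of the 48 helicase genes, ordered by their mean, with the 3 siPUM2 libraries left (orange) and the 3 NC libraries right (green) for each gene. Ddx1 stands above all others at a mean of 446 FPKM, and the siPUM2 points of Ddx41 lie clearly below its NC points.

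Helicases of ribosome assembly work in the nucleolus, where they separate guide RNAs from pre-ribosomal RNA and remodel its folding. Of 16 members with this role, 7 fell, 1 rose and 8 did not pass, with a median log2 fold change of -0.108. These shares, 43.8% lower and 6.25% higher, stood beside 13.3% and 15.1% of all genes tested. Ddx49, the counterpart of yeast Dbp8 in small-subunit assembly, was at 34.2, 35.7 and 32.4 CPM in siPUM2 1, 2 and 3, against 40.5, 41.3 and 39.9 CPM in NC 1, 2 and 3. All siPUM2 values lay under all NC values (log2 fold change -0.25 ± 0.0547 SE, adjusted p = 0.000872, edgeR). Ddx27, the counterpart of yeast Drs1 in large-subunit assembly, had 44.4, 44.6 and 44.8 CPM in siPUM2, against 51.3, 49.3 and 54.2 CPM in NC. Its siPUM2 values were nearly the same in each library and did not overlap those of NC (-0.21 ± 0.0485, adjusted p = 0.00135).

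Ddx54, another large-subunit factor and the counterpart of yeast Dbp10, was at 106, 103 and 103 CPM in siPUM2, against 119, 117 and 115 CPM in NC. The groups lay apart (log2 fold change -0.17 ± 0.0286 SE, adjusted p = 5.29e-05, edgeR). Ddx47, the counterpart of yeast Rrp3, had 88.2, 85.9 and 86.4 CPM in siPUM2, against 98.3, 96.2 and 90.2 CPM in NC, where NC 3 came closest to the siPUM2 values (-0.13 ± 0.0330, adjusted p = 0.00390). Its call was lost on log2(FPKM + 1) without a filter (0.0621).

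Ddx52, Ddx18 and Ddx56, the counterparts of yeast Rok1, Has1 and Dbp9, fell, with log2 fold changes of -0.19, -0.17 and -0.09 (adjusted p = 0.0248, 0.0269 and 0.0389, edgeR). These calls depended on the libraries and the method. Ddx52 lost its call with DESeq2 (0.0880), on log2(FPKM + 1) without a filter (0.0716) and without siPUM2 1 (adjusted p = 0.146), siPUM2 2 (0.0714), NC 1 (0.0729) or NC 2 (0.0599). Ddx18 lost it on log2(FPKM + 1) without a filter (0.0707) and without siPUM2 2 (0.0848), siPUM2 3 (0.0595), NC 1 (0.0643) or NC 2 (0.0773). Ddx56 lost it when any 1 library other than NC 3 was left out, at 0.0733 (without siPUM2 3) to 0.178 (without NC 2), with 0.152 without siPUM2 1, 0.103 without siPUM2 2 and 0.117 without NC 1. With every library kept, Ddx56 also lost it with DESeq2 (0.113), limma voom (0.0605), no filter on low counts (0.0884), the replicate number as a block (0.0644), log2(FPKM + 1) (0.0526) and log2(FPKM + 0.1) (0.0543).

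Ddx55, the counterpart of the yeast large-subunit factor Spb4, was the 1 nucleolar member that rose. It was at 35.0, 35.7 and 33.4 CPM in siPUM2 1, 2 and 3, against 31.4, 28.1 and 29.0 CPM in NC 1, 2 and 3. Every siPUM2 library lay above every NC library, and the rise of 17.7% had a log2 fold change of 0.24 ± 0.0576 (SE; adjusted p = 0.00244, edgeR). Over the 17 alternatives its log2 fold change ran between 0.20 and 0.28.

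The other 8 nucleolar members did not pass. Ddx21, which couples ribosomal RNA transcription to its processing, had 120, 118 and 116 CPM in siPUM2, against 123, 123 and 126 CPM in NC, without overlap (log2 fold change -0.07, adjusted p = 0.0654, edgeR). Its paralog Ddx50 was at 0.05 (adjusted p = 0.465). Dhx33, an activator of ribosomal RNA transcription, had the lowest fitted value of the group at -0.32 ± 0.141 (SE), at only 4.04 ± 0.529 CPM in siPUM2 and 5.01 ± 0.770 CPM in NC (SD, n = 3 each), and was not called (adjusted p = 0.0961). Ddx51 was at -0.13 (adjusted p = 0.103) and was called without NC 1 (0.0227). Ddx31, Ddx24, Dhx37 and Ddx10 lay between -0.09 and 0.02.

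Spliceosomal helicases drive the rearrangements that assemble, activate and dismantle the spliceosome. Of 10 members with this role or in snRNP assembly, 3 fell, 1 rose and 6 did not pass. Of all genes tested, 13.3% fell and 15.1% rose. The median log2 fold change over the 10 members was -0.042. The gene with the lowest p of all 48 members was Ddx41, a late spliceosomal helicase also described as a sensor of cytosolic DNA. It was at 72.7, 72.1 and 73.7 CPM in siPUM2 1, 2 and 3, against 96.5, 95.0 and 94.1 CPM in NC 1, 2 and 3. The groups lay far apart and each was tight, with means of 72.9 ± 0.822 CPM in siPUM2 and 95.2 ± 1.18 CPM in NC (SD, n = 3 each). The log2 fold change of -0.39 ± 0.0309 (SE; adjusted p = 1.26e-10, edgeR) left 76.5% of the NC level. Among all 1731 genes called lower, Ddx41 ranked 182 by log2 fold change, and over the alternatives it ran between -0.40 and -0.38.

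Ddx23, the Prp28 helicase that lets U6 take the place of U1 at the 5′ splice site, was at 135, 137 and 135 CPM in siPUM2, against 151, 151 and 154 CPM in NC. No siPUM2 library reached an NC value (log2 fold change -0.16 ± 0.0265 SE, adjusted p = 2.76e-05, edgeR). In RefSeq on GRCr8 the span of Ddx23 lies within that of Tuba1c on the opposite strand, and Tuba1c, a tubulin gene, had the same log2 fold change of -0.16 (adjusted p = 2.44e-05), at 527 CPM in siPUM2 and 589 CPM in NC. The library kit keeps strand, but the strand setting of the counting is not given in the sources used here, so whether reads of these genes were kept apart cannot be told. The same arrangement holds for Ddx39a within Adgre5 (log2 fold change of Adgre5 -0.13, adjusted p = 0.129) and for Ddx28 within Dus2 (-0.05, adjusted p = 0.611).

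Dhx16, the Prp2 helicase of spliceosome activation, fell, with a log2 fold change of -0.20 ± 0.0642 (SE; adjusted p = 0.0178, edgeR), averaging 16.7 ± 0.346 CPM in siPUM2 and 19.2 ± 1.09 CPM in NC (SD, n = 3 each), without overlap. This call was lost with DESeq2 (0.0707), on log2(FPKM + 1) without a filter (0.0793) and without siPUM2 1 (0.0545), siPUM2 3 (0.0554), NC 1 (0.0759) or NC 3 (0.0635). Dhx35, a little studied spliceosomal helicase, rose, with 9.82, 10.3 and 8.92 CPM in siPUM2, against 8.55, 7.55 and 7.50 CPM in NC. SiPUM2 3 and NC 1 lay close to each other, and the log2 fold change was 0.30 ± 0.0950 (SE; adjusted p = 0.0168, edgeR). The call of Dhx35 was lost with DESeq2 (0.0655), on the 3 log2 FPKM scales (0.0809 to 0.128) and without siPUM2 1 (0.0509), siPUM2 2 (0.0960), NC 2 (0.0742) or NC 3 (0.0748).

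The remaining spliceosomal members did not pass. Ddx46, the Prp5 helicase of branch site selection, came closest at -0.11 (adjusted p = 0.0587, edgeR) and was called without siPUM2 2 (0.0420). Dhx15, which takes the spent spliceosome apart, had a log2 fold change of -0.06 (adjusted p = 0.0712), with siPUM2 values of 180 to 187 CPM against NC values of 192 to 193 CPM. The helicases of the catalytic steps were level: Dhx38 (Prp16) had 54.8 ± 2.70 CPM in siPUM2 and 54.9 ± 1.57 CPM in NC, and Dhx8 (Prp22) 26.0 ± 0.737 CPM in siPUM2 and 25.7 ± 1.04 CPM in NC (SD, n = 3 each). Ddx42, of the U2 snRNP, and Ddx20, also called Gemin3 of the SMN complex, were at -0.02 and 0.01.

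Helicases of message export include Ddx39b (UAP56) and its paralog Ddx39a, which load export factors in the nucleus, and the Ddx19 pair, which strips them off at the cytoplasmic face of the pore. Ddx39a was at 188, 185 and 191 CPM in siPUM2, against 203, 205 and 200 CPM in NC, and fell, with a log2 fold change of -0.11 ± 0.0260 (SE; adjusted p = 0.00211, edgeR). Ddx39b had 306, 317 and 308 CPM in siPUM2, against 334, 332 and 322 CPM in NC, and fell, at a log2 fold change of -0.09 ± 0.0260 (adjusted p = 0.0116). The groups lay apart for both, siPUM2 2 coming closest to NC for Ddx39b, whose call was lost without siPUM2 1 (0.0628) and on log2(FPKM + 1) without a filter (0.0507). Ddx19a (log2 fold change -0.08, adjusted p = 0.144) and Ddx19b (-0.11, adjusted p = 0.106) were not called, although every siPUM2 library lay below every NC library for each.

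Ddx25, known in rodents as a hormone-regulated testis helicase, rose at a low level. Its values were 1.89, 2.38 and 2.47 CPM in siPUM2 1, 2 and 3, against 1.40, 1.52 and 1.63 CPM in NC 1, 2 and 3. They come from 53 to 72 counts in siPUM2 and 39 to 50 counts in NC, and the groups did not overlap. The log2 fold change was 0.56 ± 0.200 (SE; adjusted p = 0.0350, edgeR). The call was lost with DESeq2 (0.112), on log2(FPKM + 1) without a filter (0.0549) and without siPUM2 2 (0.108), siPUM2 3 (0.130), NC 1 (0.120), NC 2 (0.0854) or NC 3 (0.0564).

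**Figure D3:**
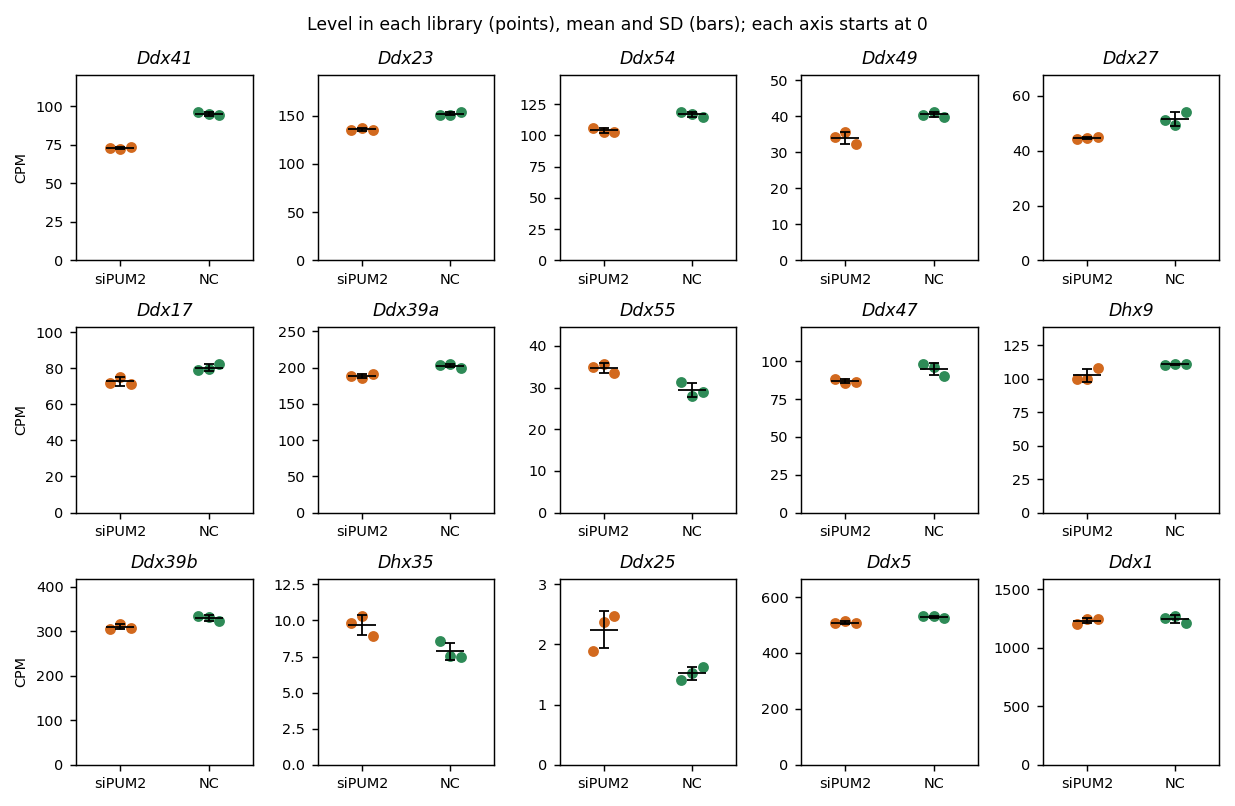
CPM in each library of 15 helicase genes (panels), siPUM2 left and NC right, with mean and SD over 3 libraries; every axis starts at 0. Ddx41 separates the groups most clearly, at 72.9 CPM in siPUM2 and 95.2 CPM in NC, Ddx55, Dhx35 and Ddx25 are higher in siPUM2, and Ddx1 overlaps.

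Helicases of translation and message decay were mostly level. Ddx6 represses messages, promotes their decapping and docks on Cnot1, the scaffold of the main deadenylase complex. It was at 64.7, 69.2 and 72.1 CPM in siPUM2, against 66.4, 71.6 and 71.3 CPM in NC, and the groups overlapped (log2 fold change -0.02 ± 0.0412 SE, adjusted p = 0.728, edgeR). Ddx3x, which helps ribosomes start on structured leaders, had 419, 431 and 409 CPM in siPUM2, against 427, 416 and 411 CPM in NC (0.01 ± 0.0261, adjusted p = 0.901). Dhx36, which unfolds G-quadruplexes, was at -0.01, and Dhx34, of nonsense-mediated decay, at -0.17 (adjusted p = 0.205). The 1 member of this group that fell was Dhx29, which helps the small subunit scan structured leaders. Dhx29 had 36.7, 37.2 and 37.3 CPM in siPUM2, against 40.7, 41.0 and 41.7 CPM in NC, groups that did not overlap (-0.15 ± 0.0521, adjusted p = 0.0304). Its call was lost without siPUM2 1 (0.0667), NC 2 (0.0555) or NC 3 (0.0748).

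Ddx5 and Ddx17 are close paralogs that act in transcription, splicing and microRNA processing. Ddx17 was at 71.6, 75.3 and 71.1 CPM in siPUM2, against 79.1, 79.7 and 82.4 CPM in NC, and fell, with a log2 fold change of -0.15 ± 0.0343 (SE; adjusted p = 0.00157, edgeR). Ddx5 had 506, 515 and 506 CPM in siPUM2, against 532, 531 and 526 CPM in NC. Its groups did not overlap, but it was not called (-0.06 ± 0.0240, adjusted p = 0.0743), although DESeq2 called it (0.0262). Within a library, the log2 ratio of Ddx5 to Ddx17 was 2.82, 2.77 and 2.83 in siPUM2, against 2.75, 2.74 and 2.67 in NC. The ratio was higher in every siPUM2 library, by 0.09 (exact permutation test, two-sided, p = 0.10, the smallest that 3 against 3 can give).

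The same ratio was taken for 4 other pairs of related members, 5 comparisons in all, and the groups overlapped in each of the 4. The shift was -0.02 for Ddx39a over Ddx39b (exact permutation p = 0.60), 0.03 for Ddx19a over Ddx19b (p = 0.50), -0.12 for Ddx21 over Ddx50 (p = 0.30) and 0.02 for Dhx8 over Dhx38 (p = 0.90). Adjusted over the 5 pairs by Benjamini-Hochberg, the exact permutation p was 0.50 for Ddx5 over Ddx17 and 0.75 to 0.90 for the others. Close paralogs share sequence, and how the counting treated reads that match both is not given in the sources used here.

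Among the other members, Dhx9 (RNA helicase A), a cofactor of transcription, fell. It had 99.8, 99.6 and 108 CPM in siPUM2, against 110, 111 and 111 CPM in NC, with siPUM2 3 close to the NC values (log2 fold change -0.11 ± 0.0317 SE, adjusted p = 0.00874, edgeR). The call was lost without siPUM2 1 (0.0666) or siPUM2 2 (0.0768), and on log2(FPKM + 1) (0.0659), log2(FPKM + 0.1) (0.0670) and log2(FPKM + 1) without a filter (0.103). Ddx11, an iron-sulfur DNA helicase of sister chromatid cohesion, fell, at a log2 fold change of -0.16 ± 0.0608 (adjusted p = 0.0469), at 19.4, 20.2 and 19.3 CPM in siPUM2, against 21.1, 23.3 and 21.3 CPM in NC. Ddx11 lost its call with DESeq2 (0.137), limma voom (0.0592), no filter on low counts (0.0606), the replicate number as a block (0.0579) and the 3 log2 FPKM scales (0.0822 to 0.140), and without siPUM2 1 (0.111), siPUM2 2 (0.0592), siPUM2 3 (0.115) or NC 2 (0.211). The mitochondrial helicases Dhx30 and Ddx28, both of mitochondrial ribosome assembly, were at -0.01 and -0.09 and were not called.

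The 5 members with other or little known roles were not called. Dhx57 was at -0.08 (adjusted p = 0.0816, edgeR) and was called without siPUM2 1 (0.0476) or NC 2 (0.0398). Ddx59, known from human ciliary disease, was at -0.08, and Dhx32 and Dhx40 were each at 0.02. Ddx43 had the highest fitted value of the family, 0.73 ± 0.376 (SE; adjusted p = 0.154), from only 13 to 32 counts in siPUM2 and 10 to 22 counts in NC, and its groups overlapped.

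Genes that share a promoter region with a member were read out as well. Within 1000 bases of the annotated start, 8 members had a tested neighbour on the opposite strand with its start upstream of theirs. For Ddx5 the start of Cep95, on the opposite strand, lies downstream of its own, and Cep95 was at -0.09 and not called (adjusted p = 0.599, edgeR). Noc4l, a ribosome assembly factor beside Ddx51, fell, with a log2 fold change of -0.17 (adjusted p = 0.0219, edgeR) where Ddx51 was at -0.13 and not called. Gtf3c4, a subunit of transcription factor IIIC beside Ddx31, fell, at a log2 fold change of -0.16 (adjusted p = 0.0428) where Ddx31 was at -0.09 and not called. Of the 3 members called lower with such a neighbour, Ddx49, Ddx54 and Dhx29, the neighbours Cope (-0.06), Rita1 (0.13) and the RNA exosome helicase Mtrex (-0.02) were not called.

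The 3 genes of the eIF4A family, DEAD-box helicases under another symbol, were all called, and not in 1 direction. Eif4a1, the main unwinding enzyme of cap-dependent translation, was at 847, 837 and 839 CPM in siPUM2 1, 2 and 3, against 1047, 1009 and 998 CPM in NC 1, 2 and 3. The groups lay far apart, and Eif4a1 fell, with a log2 fold change of -0.28 ± 0.0248 (SE; adjusted p = 1.30e-09, edgeR). Its paralog Eif4a2 had 198, 214 and 208 CPM in siPUM2, against 170, 176 and 180 CPM in NC, all higher in siPUM2, and rose by 0.24 ± 0.0298 (adjusted p = 4.19e-07). Eif4a3, the helicase of the exon junction complex, was at 122, 127 and 129 CPM in siPUM2, against 156, 153 and 149 CPM in NC, and fell, at a log2 fold change of -0.28 ± 0.0286 (adjusted p = 1.41e-08). These 3 calls held in all alternatives. On FPKM, Eif4a1 averaged 365 in siPUM2 and 443 in NC, beside 87.5 in siPUM2 and 74.3 in NC for Eif4a2.

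Of 73 related helicases and partner genes in the table, 18 fell and 6 rose. In the TREX complex, which couples transcription to export through Ddx39b, 6 of 11 genes fell and 1 rose, where 13.3% of all genes tested fell and 15.1% rose. Its median log2 fold change was -0.102. The export adaptor Alyref was at 112, 117 and 116 CPM in siPUM2, against 136, 143 and 136 CPM in NC (-0.26 ± 0.0291 SE, adjusted p = 7.27e-08, edgeR). Its groups lay apart. Thoc5 (-0.21), Poldip3 (-0.16), Chtop (-0.14), Thoc6 (-0.14) and Sarnp (-0.10) fell, and the scaffold Thoc2 rose (0.20, adjusted p = 0.00145). Thoc6 lost its call without siPUM2 1 (0.148), siPUM2 2 (0.0674), NC 2 (0.130) or NC 3 (0.0721), and Sarnp without siPUM2 2 (0.236), siPUM2 3 (0.0656), NC 2 (0.0615) or NC 3 (0.305). With every library kept, Sarnp lost it with DESeq2 (0.103) and on the 3 log2 FPKM scales (0.144 to 0.245). Chtop (0.0511) and Thoc5 (0.0958) lost theirs on log2(FPKM + 1) without a filter.

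Among 14 MIF4G-domain and other partners of DEAD-box helicases, 4 fell and 2 rose. These shares, 28.6% lower and 14.3% higher, stood beside 13.3% and 15.1% of all genes tested. Eif4g1, the scaffold that clamps eIF4A, fell, with a log2 fold change of -0.19 (adjusted p = 3.59e-06, edgeR), and the eIF4A cofactors Eif4h (-0.18) and Eif4b (-0.14) fell as well. Cnot1 (-0.08) fell, with its call lost when any 1 library other than NC 1 or NC 2 was left out, at 0.0597 (siPUM2 1), 0.112 (siPUM2 2), 0.0932 (siPUM2 3) and 0.168 (NC 3). With every library kept, Cnot1 lost it with DESeq2 (0.0950), limma voom (0.0581), no filter on low counts (0.0603) and a replicate block (0.0631). The 3 log2 FPKM scales (0.131 to 0.142) lost it too. Nom1 (0.16) and Eif4g3 (0.12) rose. Nom1 lost its call without siPUM2 2 (0.0507), siPUM2 3 (0.0601) or NC 3 (0.144), and Eif4g3 without siPUM2 1 (0.112), siPUM2 3 (0.160), NC 1 (0.300) or NC 2 (0.124). With every library kept, both lost it on the 3 log2 FPKM scales and with the gene length trend removed (Nom1 0.0503, Eif4g3 0.231). Eif4g3 also lost it with RLE size factors (0.0560), DESeq2 (0.111), no filter on low counts (0.0552) and a filter of 1 CPM in 3 libraries (0.0501). The eIF4A inhibitor Pdcd4 was at 0.11 and was not called (adjusted p = 0.158).

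G-patch proteins switch DEAH-box helicases on. Of 21 measured, 2 fell, 1 rose and 18 did not pass. These shares, 9.52% lower and 4.76% higher, were under the 13.3% and 15.1% of all genes tested. Gpatch4 fell, with a log2 fold change of -0.30 (adjusted p = 0.000390, edgeR), at 21.0, 19.4 and 18.4 CPM in siPUM2, against 23.5, 25.0 and 24.0 CPM in NC, groups that lay apart. Rbm17 (-0.13) fell and Zgpat (0.22) rose. Rbm17 lost its call without NC 2 (0.0932), and Zgpat without siPUM2 2 (0.105), NC 2 (0.0875) or NC 3 (0.162). With every library kept, Zgpat lost it with DESeq2 (0.0972) and on the 3 log2 FPKM scales (0.0690 to 0.136). Rbm17 lost it on log2(FPKM + 1) without a filter (0.0853).

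Of 11 partners of Ddx6 in P-bodies, 2 fell and 1 rose. These shares, 18.2% lower and 9.09% higher, stood beside 13.3% and 15.1% of all genes tested. The decapping enzyme Dcp2 rose, with 10.1, 11.7 and 12.6 CPM in siPUM2, against 7.58, 8.84 and 8.12 CPM in NC, without overlap (log2 fold change 0.49 ± 0.0951 SE, adjusted p = 0.000244, edgeR). Edc3 (-0.21) and Ybx1 (-0.12) fell. Edc3 lost its call without siPUM2 2 (0.0592) and on log2(FPKM + 1) without a filter (0.0536). Of 13 helicases of the Ski2-like and Upf1-like families, 2 fell, a share of 15.4% and near that of all genes tested. They were the U5 snRNP helicase Snrnp200 (-0.14, adjusted p = 0.000725, edgeR) and Upf1 (-0.12, adjusted p = 0.00321), the helicase of nonsense-mediated decay. The exosome helicases Mtrex and Skiv2l were each at -0.02 and were not called.

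**Figure D4:**
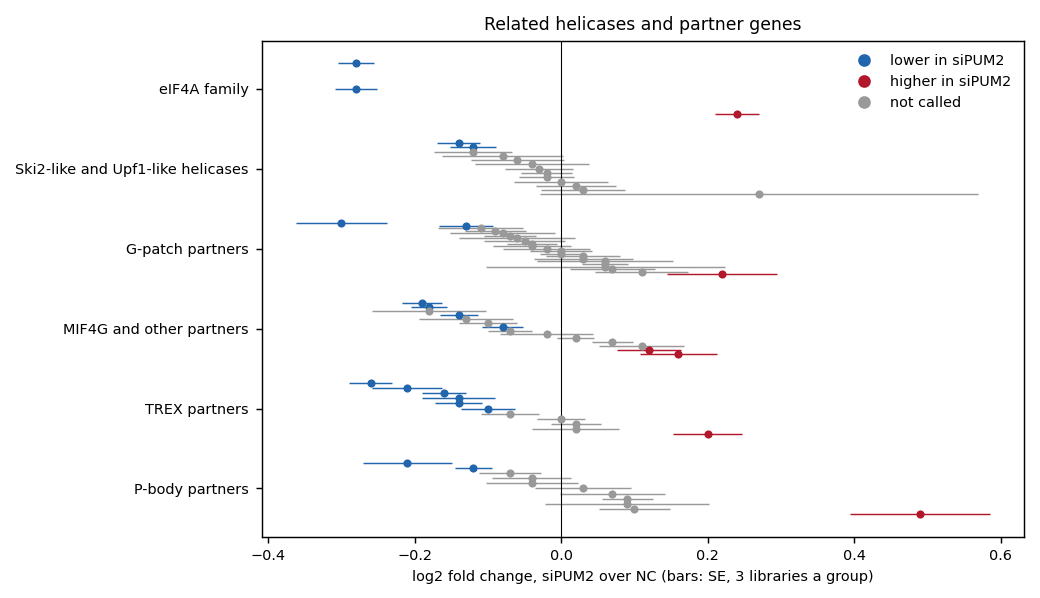
Log2 fold change (siPUM2 over NC, horizontal axis) with its SE for related helicases and partner genes in 6 lists (rows); blue points were called lower, red points higher and grey points not called. In the eIF4A row, Eif4a1 and Eif4a3 lie at -0.28 and Eif4a2 at 0.24, and in the TREX row 6 of 11 points are blue.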

How the data were processed

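RNA of H9C2 cells was measured in 6 libraries, 3 siPUM2 and 3 NC, grouped by their titles. Poly(A) selection and strand-keeping libraries are described in the labels' protocols. HISAT2, DESeq2 and the build mRatBN7.2 appear in the submitters' processing notes. The read counter is not given in the sources used here, nor are versions and annotation. Raw gene counts were deposited as whole numbers, and the authors also deposited FPKM values.

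The deposited counts were tested with edgeR 4.0.16 (R 4.3.3) as quasi-likelihood fits with TMM scaling (factors 0.995 to 1.003), edgeR's filter on low counts (12985 of 19825 genes kept) and the group as the only term. P-values were adjusted by Benjamini-Hochberg over all genes tested. SE were derived from the F statistic. FPKM served for levels between genes. Paralog ratios were tested by exact permutation. Alternatives were other scaling, DESeq2 1.42.0, limma 3.58.1 (voom, or log2 FPKM with a pseudocount of 1 or 0.1), other filters, a replicate block, each library left out and, chosen after seeing the data, removal of a gene length trend. The fit was checked on simulated data.

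The members, roles and partner lists were chosen with earlier results of these data known. Values in every library are given, by rule, for the 12 members with the lowest p, the called members with the largest rise and fall, paralog pairs without overlap and the 3 highest in FPKM; other members and the neighbouring and overlapping genes were chosen after their values were seen. List entries were matched by current or older symbol (RefSeq, GRCr8). Genes not matched in the count table were not analysed here. No 2 libraries of a group agreed within counting error (chi-square per degree of freedom 2.08 to 3.82). Depth made 1 count worth 0.0327 to 0.0361 CPM.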

Additional observations from a re-analysis of the deposited data

How the results depend on the processing

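No called member changed direction under any of the 17 alternatives, and 8 of the 19 kept their call in all. The count of members called lower, 16, ran from 10 to 14 with single libraries left out, and that of members called higher, 3, from 1 to 2. In the same fits 10.6% to 13.2% of all genes tested were called lower, beside 13.3% with every library. On log2(FPKM + 1) without a filter 10 were lower and 1 higher, at an adjusted p under 0.01 these were 9 and 1, and with DESeq2 13 and 1. The share of all genes tested that was called lower was 5.56% on log2(FPKM + 1) without a filter and 11.4% with DESeq2. At an adjusted p under 0.01 that share was not counted, so the 9 and 1 members have no all-gene share beside them. Removing the gene length trend gave 22 lower and 3 higher, and 15.5% of all genes tested were then called lower. Ddx46, Ddx21, Dhx15, Ddx5, Dhx57 and Ddx19b were called under that setting. Among the 73 partner and related genes, the 6 called higher became 3 on each of the 3 log2 FPKM scales, and 4 to 5 with a library left out. The 18 called lower ran from 14 to 19 with a library left out and were 13 on log2(FPKM + 1) without a filter. In all, 14 of the 24 called kept their call throughout. The shift in the Ddx39a over Ddx39b ratio ran from -0.0368 to 0.00642 with a library left out, turning sign without siPUM2 2 (0.00642). That of Dhx8 over Dhx38 ran from -0.0165 to 0.0378, turning without siPUM2 2 (-0.0165) and without NC 2 (-0.0141). The causes were not tested.

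Same-numbered libraries did not deviate together (correlations 0.00270 to 0.0342), so no shared deviation by number was seen. Whether same-numbered libraries were prepared together is not labelled, and these correlations cannot tell. With the number as a replicate block, 14 members were lower and 3 higher, and 17 and 6 of the partner genes, and 13.5% of all genes tested were lower. The Ddx5 over Ddx17 shift was 0.0894 (exact sign-flip test, two-sided, p = 0.25, the smallest that 3 pairs can give).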

Other observations

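Ddx1 stood far above its chromosomal neighbours. On RefSeq's gene order the adjacent protein-coding genes on chromosome 6 are Mycn and Nbas. Mycn, a MYC-family transcription factor best known from neural tumours, averaged 30.1 FPKM in siPUM2 and 33.8 FPKM in NC, and Nbas, a factor of Golgi-to-ER transport, 36.2 FPKM in siPUM2 and 41.5 FPKM in NC, beside 443 FPKM in siPUM2 and 448 FPKM in NC for Ddx1. Both neighbours fell, with log2 fold changes of -0.16 (Mycn, adjusted p = 0.000413, edgeR) and -0.19 (Nbas, adjusted p = 6.08e-07), where Ddx1 was at -0.01 and not called. These neighbours were chosen after the levels were seen. The level of Mycn also stood above that of Myc, which averaged 11.0 FPKM in siPUM2 and 13.8 FPKM in NC and fell, at a log2 fold change of -0.32 (adjusted p = 0.000259).

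The gene Homer3, which overlaps Ddx49 in part on the opposite strand in GRCr8, rose by 0.10 (adjusted p = 0.0146, edgeR), at 124 CPM in siPUM2 and 116 CPM in NC, where Ddx49 fell.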
